A study of Mus musculus with 4 samples.

Results

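The CpGs described here are the 3000 sites of the frontal cortex, of 9731 that the authors called between E3 and CT, that their annotation placed in no promoter, exon, intron or CpG island. They are referred to as intergenic CpGs. Frontal cortex and hippocampus from wild-type female CD-1 offspring were profiled by reduced representation bisulfite sequencing in 4 libraries, 1 per tissue and treatment. The mothers had received estriol (E3) in DMSO (50 µl of 0.46 mg/ml) or DMSO alone (CT) from a mini-osmotic pump, starting on gestation day 9 and lasting 7 days, and the labels give an age of 8 weeks for the offspring. A later age is given in the paper for its brain expression data, and which holds for these libraries is not known. CD-1 is an outbred stock, and neither the labels nor the methods say whether a library held DNA of 1 mouse or of several. With 1 library per group, every difference below compares 2 libraries and not the treatments, and differences between mice and effects of treatment cannot be told apart. These libraries hold DNA alone, and the RNA data of the study are not used here, so the tissue labels were not checked against marker genes.

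Methylation of the cytosine in a CpG is set by DNA methyltransferases and copied to the new strand when a cell divides. Most CpGs outside islands are methylated in mammalian cells, and those between genes that are unmethylated or partly methylated often lie in enhancers, insulators or regions that differ between cell types. Bisulfite sequencing reads an unmethylated cytosine as thymine, and it does not separate 5-methylcytosine from 5-hydroxymethylcytosine, which is abundant in neurons. Estriol is an estrogen made in quantity by the placenta during human pregnancy, and estrogen receptors bind the estrogen response element, a palindrome of GGTCA with 3 bases between its arms.

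The sequences of 7 runs of neighbouring members are shown first, because along each of them the direction was shared by every member. They are from the plus strand of GRCm38 (mm10), and capitals mark the member CpGs. The 9 members at chr4:147219510-147219623 lay within the RefSeq span of the zinc finger gene Zfp978, and the 9 at chr17:34139616-34139915 and just upstream lay near H2-DMb2, which encodes a chain of the class II chaperone that loads peptides. The 7 at chr9:21970825-21971031 lay near the erythropoietin receptor gene Epor, the 7 at chr7:12949746-12949958 in the long noncoding RNA 1810019N24Rik, the 6 at chr19:55061531-55061813 between genes and the 5 at chr2:59600533-59600613 in an uncharacterised long noncoding RNA. The last 5, at chr7:114656979-114657112, had Calca, the gene of calcitonin and the peptide CGRP, as the nearest start.
Zfp978 run: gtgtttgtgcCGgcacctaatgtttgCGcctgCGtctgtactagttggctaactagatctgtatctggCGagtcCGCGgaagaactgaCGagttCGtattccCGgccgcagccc
H2-DMb2 run: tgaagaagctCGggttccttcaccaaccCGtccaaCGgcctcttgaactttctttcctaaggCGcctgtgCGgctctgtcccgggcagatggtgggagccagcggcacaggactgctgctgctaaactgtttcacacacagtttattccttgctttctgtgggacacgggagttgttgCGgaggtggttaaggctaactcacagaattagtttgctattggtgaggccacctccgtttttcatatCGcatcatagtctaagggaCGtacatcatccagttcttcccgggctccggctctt
Epor run: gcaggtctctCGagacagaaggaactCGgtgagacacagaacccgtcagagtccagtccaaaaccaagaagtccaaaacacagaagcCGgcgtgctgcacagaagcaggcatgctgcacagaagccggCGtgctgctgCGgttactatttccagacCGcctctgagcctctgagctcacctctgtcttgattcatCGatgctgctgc
1810019N24Rik run: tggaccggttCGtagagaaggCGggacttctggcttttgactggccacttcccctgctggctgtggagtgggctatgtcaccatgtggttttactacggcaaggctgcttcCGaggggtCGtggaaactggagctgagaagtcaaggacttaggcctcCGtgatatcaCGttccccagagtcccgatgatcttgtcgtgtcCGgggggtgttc
chromosome 19 run: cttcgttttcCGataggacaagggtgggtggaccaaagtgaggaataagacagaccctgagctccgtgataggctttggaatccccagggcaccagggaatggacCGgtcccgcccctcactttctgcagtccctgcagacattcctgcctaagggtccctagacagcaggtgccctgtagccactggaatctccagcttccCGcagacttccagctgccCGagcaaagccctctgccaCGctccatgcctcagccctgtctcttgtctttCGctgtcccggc
chromosome 2 run: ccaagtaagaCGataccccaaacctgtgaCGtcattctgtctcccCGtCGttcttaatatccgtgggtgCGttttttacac
Calca run: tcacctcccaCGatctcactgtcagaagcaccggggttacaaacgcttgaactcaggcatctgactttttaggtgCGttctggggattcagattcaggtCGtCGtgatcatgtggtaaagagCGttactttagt

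Single CpGs with large differences in both tissues are shown with 30 bases on the left and 30 on the right of the CpG, again from the plus strand of GRCm38. The first 3 moved the same way in both tissues and the last 3 the opposite way. Of the 10 named sites of each kind they were the 3 with the most hippocampus reads, both strands summed, in whichever library had fewer at that site. They lay at chr11:37114080-37114141, chr12:119128355-119128416, chrX:75997927-75997988, chr17:45336082-45336143, chr4:130200442-130200503 and chr10:9246394-9246455.
chromosome 11 site, same way: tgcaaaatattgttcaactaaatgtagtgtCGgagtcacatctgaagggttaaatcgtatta
chromosome 12 site, same way: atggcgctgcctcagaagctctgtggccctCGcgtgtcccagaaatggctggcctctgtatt
chromosome X site, same way: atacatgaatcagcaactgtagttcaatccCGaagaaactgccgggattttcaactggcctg
chromosome 17 site, opposite way: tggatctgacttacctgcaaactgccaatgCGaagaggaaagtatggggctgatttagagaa
chromosome 4 site, opposite way: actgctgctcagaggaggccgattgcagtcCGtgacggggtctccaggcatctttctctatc
chromosome 10 site, opposite way: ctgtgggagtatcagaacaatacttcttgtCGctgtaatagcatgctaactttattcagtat

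In the frontal cortex 1395 intergenic CpGs were hypermethylated in E3 and 1605 were hypomethylated, so 53.5% were lower. In the whole table of called sites 63.7% were lower and 36.3% higher, and these shares describe the same libraries that chose the sites, so no test was applied. CpG islands of the same table had 80.7% of their 2434 sites lower, promoters outside islands 72.7% of 1138, exons 58.6% of 614 and introns 56.6% of 2545. The intergenic CpGs thus had the smallest share of lower sites of the 5 classes.

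The differences at intergenic CpGs were large. The median absolute difference was 43.7 percentage points, with quartiles of 27.3 and 64.5, against 19.2 points in CpG islands and 41.7 in introns. Sites higher in E3 had a median of 52.4% in E3 and 4.08% in CT. Sites lower in E3 had a median of 0% in E3 and 50% in CT. A level of 0% in 1 of the libraries was found at 1402 members (46.7%), against 46.2% of intron sites and 41.2% of all called sites. From 0% to 100% or back went 120 members, 43 of them rises and 77 falls. Only 1 member was above 60% in both libraries, and it was the only such site among all 9731 called sites. In the hippocampus the thresholds described below called 30276 of 154419 sites outside RefSeq genes and promoters at 70 to 90%, both libraries pooled. A pooled level is not the same measure, and whether the cortex list passed a further selection is not known. The levels and differences given here describe the listed sites alone. The depth behind the frontal cortex levels is unknown, so these fractions carry no interval. The smallest difference was 10.1 points, just inside the minimum of 10 used by the authors, and the next were 10.3 and 10.4. Sites outside that minimum are not analysed here.

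**Figure D1:**
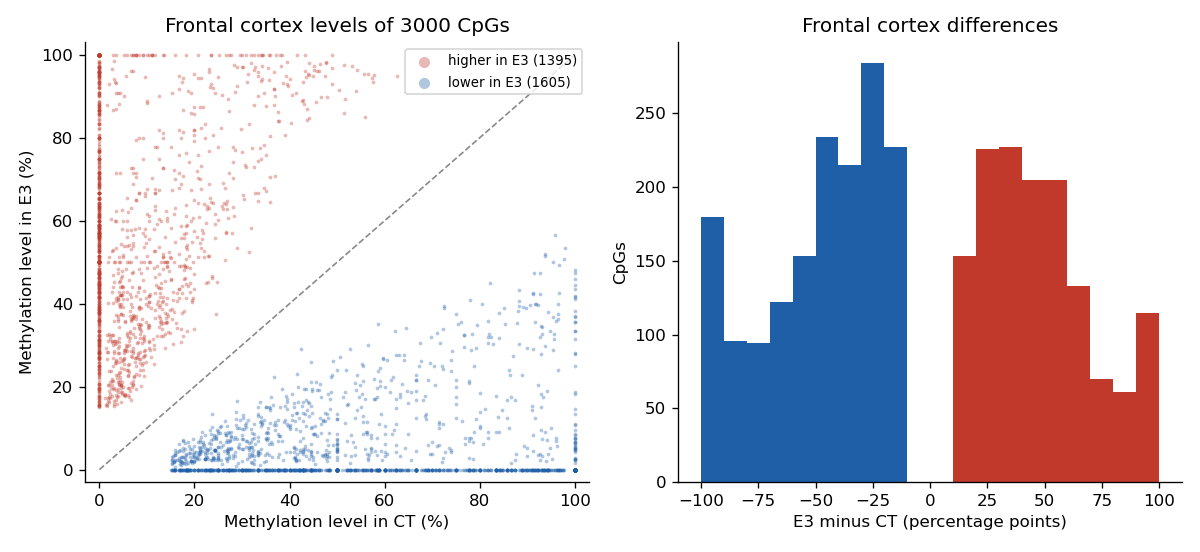
Left, methylation level of each of the 3000 intergenic CpGs in the frontal cortex of E3 against CT, with the dashed line marking equal levels, and right, the number of CpGs by difference in bins of 10 points. Both clouds sit along the axes, where 1 library is near 0%, and 1395 sites are higher in E3 and 1605 lower.

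The share of lower sites depended on the size of the difference without a steady order. It was 59.2% at 10 to 20 points, 49.6% at 30 to 50, 47.0% at 50 to 70 and 61.5% at 90 to 100. Chromosome 4 held the most members, 272, with 62.5% lower. Chromosome 17 had the highest density, 16.6 members per 1000 hippocampus CpGs outside RefSeq genes and promoters, and the X chromosome had 3.03. Members in RefSeq genes and promoters are counted in this density, although such hippocampus CpGs are not. The share lower ranged from 34.3% on chromosome 16 (70 members) to 73.1% on chromosome 19 (67 members).

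The megabases with the most members held up to 30 each, given here with the number of hippocampus CpGs outside RefSeq genes measured in them. Those hippocampus CpGs leave out RefSeq genes and promoters, whereas the members counted do not. The megabase starting at 34 Mb on chromosome 17, which holds class II genes of the major histocompatibility complex, contained 30 members beside 105 hippocampus CpGs, and 11 were higher and 19 lower. The megabase at 20 Mb on chromosome 12 contained 26 beside 282, all higher in E3, and these 26 are the 2 adjacent runs of 15 and 11 described below. In the megabase at 143 Mb on chromosome 4, 19 of 21 were lower (beside 173), and at 96 Mb on chromosome 11 all 17 were lower (beside 281).

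Whether the same cytosines differed in a second brain region was examined in the hippocampus, whose table gives read counts at every measured site. Of the 3000 members, 1561 (52.0%) had at least 5 reads in both hippocampus libraries. Fisher's exact test (2-sided, unadjusted p below 0.05, levels 10 or more points apart, 1 library per group) called 520 of them, or 33.3%. Over all 2226271 CpG rows of that table the share called was 11%, and over the 602864 rows outside RefSeq genes and promoters it was 13.3%. Members were thus called more often than other sites in these libraries. Of the 1187 measured members outside RefSeq genes and promoters, 405 (34.1%) were called. Among the members, 232 were higher in E3 (all rows 6.18%, outside genes 8.32%) and 288 lower (all rows 4.83%, outside genes 4.95%).

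The direction was not shared. Of the 520 members called in the hippocampus, 260 moved the same way as in the frontal cortex and 260 the opposite way. Of the members higher in the cortex, 116 were called higher and 144 lower in the hippocampus, and the same numbers, 116 and 144, held for the members lower in the cortex. The median hippocampus difference was 0 points in both sets. Summing the reads of both strands of a CpG gave 2231 measured members, with 810 called, 403 the same way and 407 the opposite way. The share called over all sites with strands summed was not computed. Introns gave 186 the same way and 227 the opposite way, and islands 68 and 43, with 34.3% and 12.9% of their measured sites called. Island sites were 80.7% lower in the cortex. The hippocampus split of higher and lower was not computed for these classes, so the agreement that the splits alone would give is not known.

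The median hippocampus level of the members was 30.4% in E3 and 28.6% in CT, against 87.5% and 100% for all measured CpGs outside RefSeq genes. These are not like sets, because the cortex calls chose the members, and only 1 was above 60% in both cortex libraries. The mean levels of the tissues correlated, as given below, and some members lay in RefSeq genes. Of the members 33.5% lay between 30% and 70% (both libraries pooled), against 17.5% of all such sites, and 8.14% lay at 90% or above, against 45.1%. Fisher's test calls sites at middle levels more easily, so the shares were read within bands of level. Between 30% and 70%, 51.1% of members were called against 33.4% of all sites outside RefSeq genes. From 70% to 90% the shares were 42.4% and 19.6%, from 10% to 30% they were 33.3% and 21.5%. At 0 to 10% they were 8.98% and 2.47%, and at 90 to 100% they were 11.02% and 2.46%. In each of the 5 bands the members were called more often. Members had a median of 32 reads in E3 and 10 in CT, against 27 and 9 over all rows, and the part of this depth in the shares was not tested.

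**Figure D2:**
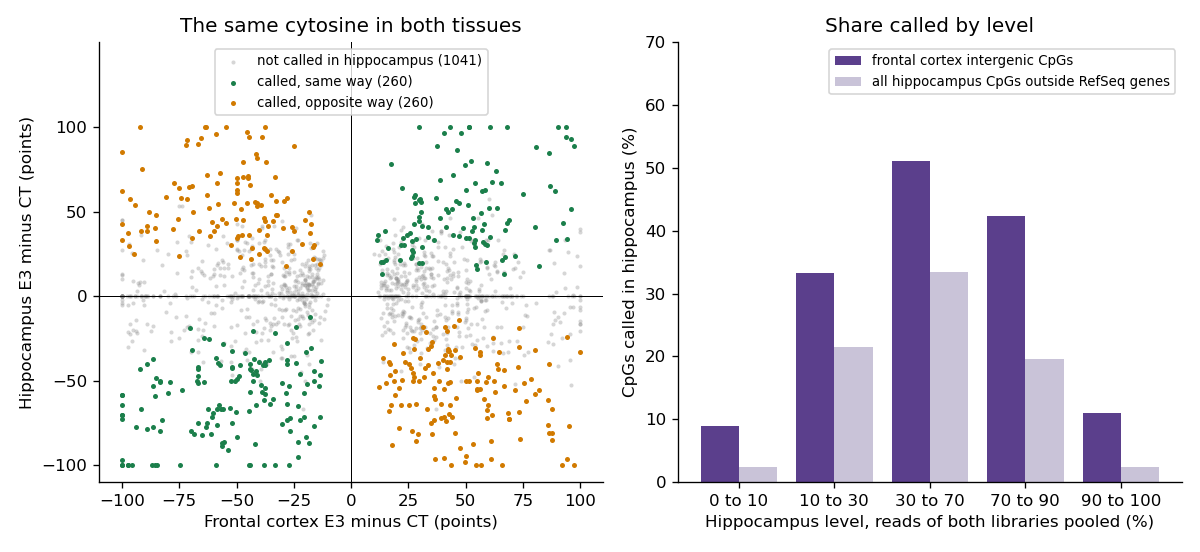
Left, difference between E3 and CT of each of 1561 members in the frontal cortex (x axis, percentage points) and in the hippocampus (y axis, percentage points), with sites called in the hippocampus coloured, and right, the share of CpGs called in the hippocampus by its level, members beside all CpGs outside RefSeq genes and promoters. The 520 called sites fill the 4 quadrants, with 260 the same way and 260 the opposite way, and members have the taller bar in each level band.

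The share called rose with the cortex difference up to 90 points and was lower above it. It was 22.3% of the members that differed by 10 to 30 points in the cortex, 42.9% at 50 to 70, 45.5% at 70 to 90 and 31.5% at 90 or more. The hippocampus level changed over these bands too. Its medians in E3 and CT were 16.7% and 8.67% at 10 to 30 points, and 46.5% and 55.6% at 50 to 70. The part of this level in the shares was not tested. Of the 130 measured members with 90 points or more, 33 (25.4%) were at 90% or above in both hippocampus libraries. Where both strands of a CpG were measured, 304 members were called on the plus strand, and 138 of them (45.4%) were called the same way on the minus strand and 16 the opposite way. The same share over all called hippocampus CpGs was not computed, so 45.4% cannot be read as particular to the members. Of those 138, 69 moved as in the cortex and 69 against it. As a description over 1561 sites of the same 4 libraries, the mean levels of the tissues correlated (Pearson r = 0.50, Spearman rho = 0.50), and the differences did not (r = -0.0014, rho = -0.018).

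The sites named here and in the next paragraph are extremes, chosen by a hippocampus call and a large difference in both tissues. Their p-values come from the same hippocampus reads that chose them. At position 37114110 of chromosome 11, 74078 bases from the start of Tenm2, a teneurin of synaptic adhesion, the level was 90.3% in E3 and 0% in CT of the cortex. In the hippocampus it was 100% of 38 reads in E3 (Wilson 95%, from 90.8% to 100%), and in CT 0% of 26 reads (0% to 12.9%), with Fisher's exact p = 1.66e-18. The minus strand gave 100% of 39 reads and 0% of 11. At position 95442835 of chromosome 8, near Cfap20, which encodes a protein of cilia, the levels were 0% and 100% in the cortex, and 0% of 18 reads and 96.9% of 32 in the hippocampus (Fisher's exact p = 1.05e-12). The intervals and p-values cover counting error alone, and reads without molecular identifiers are not independent molecules.

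Opposite directions also occurred at sites with large differences in both tissues. In the 10 named sites of this kind the smaller of the tissue differences ranged from 76.5 to 97.1 points, and it was at least 90 points at 4 of them. In the 10 named sites that moved the same way it ranged from 90.3 to 100 points. Among the same-way sites, the neighbouring positions 12263228 and 12263247 of chromosome 14 had the same hippocampus read counts, 56 in E3 and 8 in CT. Some same-way sites occur at more than 1 place of the reference, as given below. Position 45336112 of chromosome 17, shown above, was at 97.1% in E3 and 0% in CT of the cortex. In the hippocampus it was at 0% of 67 reads in E3 (0% to 5.42%) and 100% of 21 in CT (84.5% to 100%), with Fisher's exact p = 1.00e-20. Position 9246424 of chromosome 10 was at 100% and 5.88% in the cortex, and in the hippocampus at 3.85% of 26 reads and 100% of 8, with the minus strand at 0% of 48 and 100% of 8. Position 34074913 of chromosome 17, 1328 bases from H2-Pb, was at 0% and 92.3% in the cortex, and at 100% of 16 reads and 0% of 8 in the hippocampus.

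Sites that went from 0% to 100% or back in the cortex were looked up as whole sets. Of all 43 such rises, 14 were measured at the same cytosine, and Fisher's exact test called 0 higher and 1 lower. With both strands summed 23 were measured, 2 called higher and 6 lower. Of all 77 such falls, 34 were measured, with 9 called lower and 4 higher, and with both strands summed 49 were measured, with 11 lower and 12 higher. The sites named from these ties were the 10 rises and 10 falls with the most reads at the same cytosine in whichever hippocampus library had fewer. None of those 10 rises was called on the plus strand, but 2 were called lower with both strands summed. At position 38005521 of chromosome 9 the summed levels were 31.2% in E3 and 77.8% in CT (Fisher's exact p = 0.0028), and at 109870517 of chromosome 12 they were 12.9% and 66.7% (Fisher's exact p = 9.7e-05). The rise at position 85719403 of chromosome 4 lay at a site with 100% of 16 reads and 100% of 6 in the hippocampus. The falls at positions 75690776 and 75690778 of the X chromosome had 0% of 38 and 40 reads in E3 and 70.6% of 34 reads in CT. At position 23507211 of chromosome 13, near a tryptophan transfer RNA gene, the cortex fell from 100% in CT to 0% in E3, whereas the hippocampus had 62.1% of 66 reads in E3 and 0% of 18 in CT.

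Neighbouring members moved together. Members within 1 to 50 bases of each other had the same direction in 98.0% of 247 pairs, falling to 85.2% of 88 pairs between 200 and 1000 bases and 65.1% of 724 pairs at 10 to 100 kb. It was 61.9% of 1956 pairs between 0.1 and 1 Mb and 53.6% of 2936 pairs between 1 and 10 Mb, whereas the split of higher and lower alone would give 50.2%. With 1 member kept per run the shares beyond 1000 bases were 73.7%, 66.2%, 61.9% and 54.4%. Called CpGs of the hippocampus outside RefSeq genes had 85.4% at 1 to 50 bases, 54.8% at 1 to 10 kb and 53.7% at 10 to 100 kb, with a split of 53.5%. Nearby CpGs share reads, so pairs are not independent.

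**Figure D3:**
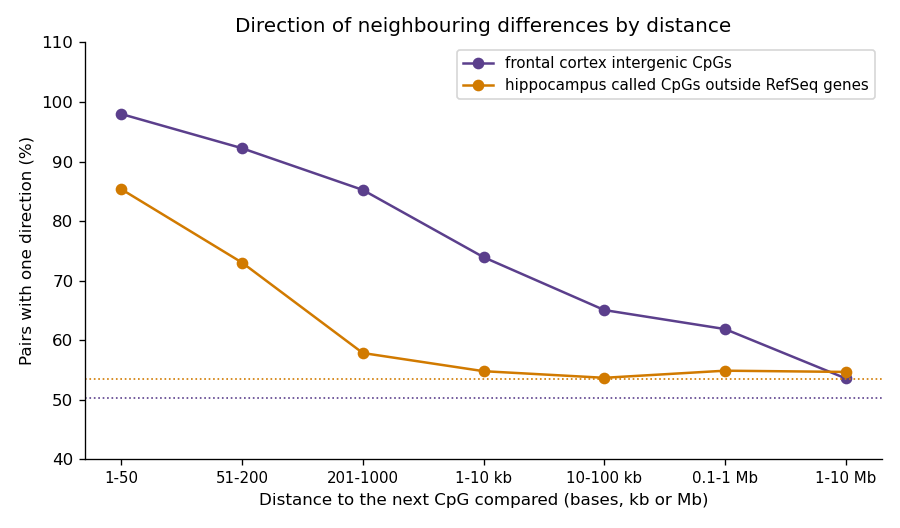
Share of pairs of CpGs with one direction (y axis, percent) by their distance (x axis, bases, kb or Mb) for the frontal cortex intergenic CpGs and for called hippocampus CpGs outside RefSeq genes, with dotted lines for the share that the split of higher and lower alone would give. The cortex line falls from 98.0% to 53.6% and stays above the hippocampus line up to 1 Mb. Cortex intron CpGs, which had similar shares, are not drawn.

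The 3000 members formed 2558 places when those within 1000 bases were joined. They were 2262 single CpGs, 236 pairs and 60 runs of 3 or more, with 266 members in runs. Of the 60 runs, 25 were wholly higher, 30 wholly lower and 5 mixed. In 46 runs at least 3 members were measured in the hippocampus with both strands summed. There 13 runs moved the same way by 10 points or more, 15 the opposite way, and 18 by less than 10 points.

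The 2 largest runs lay next to each other on chromosome 12, near the uncharacterised gene Gm32719. From position 20230405 to 20231567, 15 members averaged 82.3% in E3 and 41.8% in CT of the cortex, and all 15 were higher in E3. Summed over these CpGs, the hippocampus had 77.5% of 2317 reads and 79.5% of 386 there, but 2 members were called higher and 4 lower with both strands summed. A read is counted at every CpG it covers, here and in the other runs, and the deepest CpG of this run had 520 reads. From 20232858 to 20234380, 11 members averaged 96.5% and 40.7% in the cortex, and in the hippocampus 73.1% of 625 reads and 92.3% of 195. Of the 7 measured there with both strands summed, 2 were called lower and 0 higher. The sequence around 4 of the 15 and 1 of the 11 occurs at more than 1 place in the reference.

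The Zfp978 run had 9 members between 0% and 4.35% in E3, and between 73.9% and 86.9% in CT. None of the 9 was measured in the hippocampus, and 3 had sequence that occurs at more than 1 place. In the H2-DMb2 run the 9 members were between 20.3% and 50% in E3 and between 1.54% and 13.8% in CT. In the hippocampus the pooled levels were 10.1% and 14.9%, and none was called.

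The other runs differed in what the hippocampus showed. In the Epor run the 7 members averaged 10.5% in E3 and 70.02% in CT of the cortex, but 47.8% of 523 reads and 25% of 104 in the hippocampus, where 3 were called higher and 1 lower with both strands summed. The 1810019N24Rik run averaged 24.3% and 61.9% in the cortex, and in the hippocampus 41.0% of 427 reads and 13.3% of 180, with 5 of 7 called higher. The Calca run averaged 4.35% and 38.7% in the cortex, and 14.6% of 506 reads and 3.81% of 210 in the hippocampus. These 3 runs had a lower E3 level in the cortex and a higher one in the hippocampus. The run on chromosome 19 was lower in both, with 5.98% and 28.7% in the cortex and 12.5% of 208 reads and 95% of 40 in the hippocampus, where all 3 measured members were called lower. The run on chromosome 2, whose nearest protein-coding start was that of the postsynaptic scaffold gene Tanc1, averaged 76.4% and 14.7% in the cortex, and 31.7% of 284 reads and 45.1% of 82 in the hippocampus. Sums over a run carry no test, since its CpGs share reads and a read is counted at each CpG it covers. In the 1810019N24Rik run the deepest CpG had 72 reads, beside the sum of 427.

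**Figure D4:**
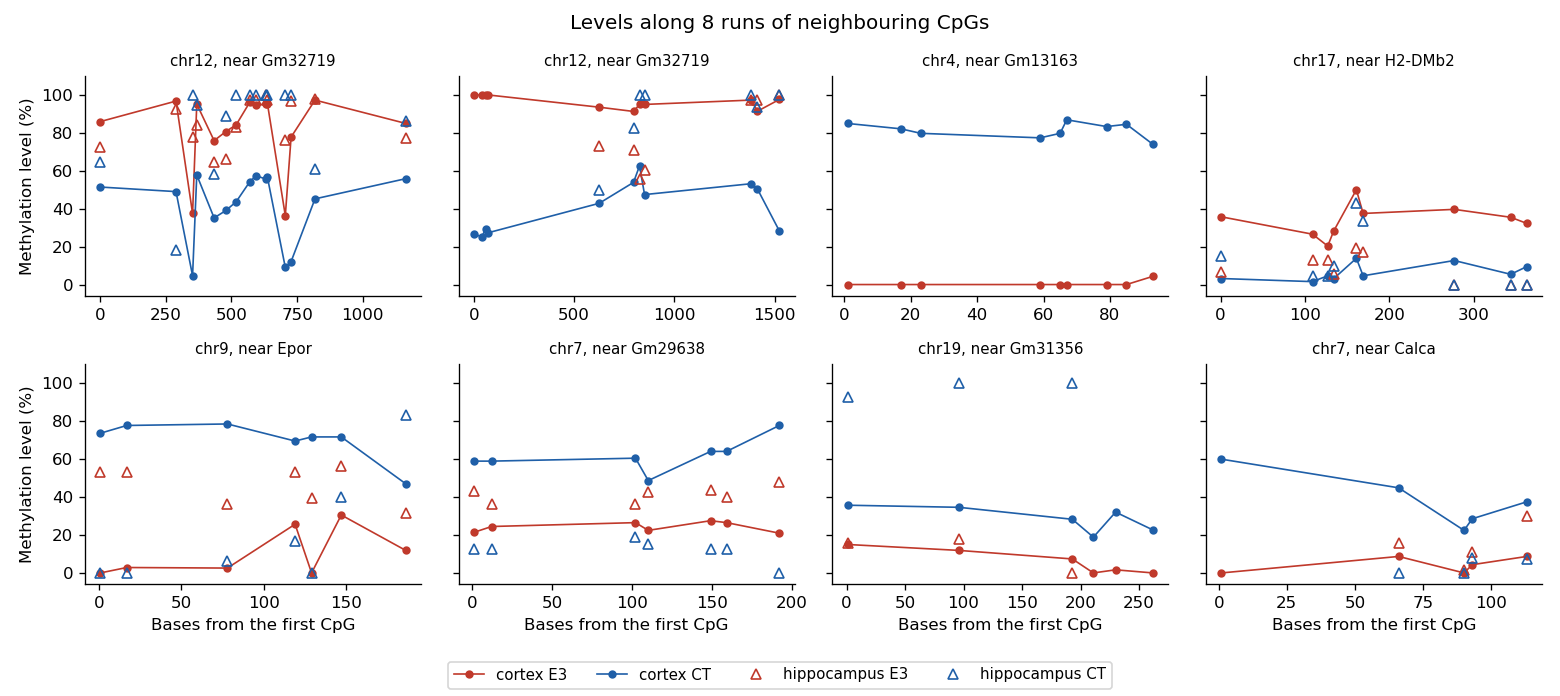
Methylation level (y axis, percent) along 8 runs against the distance from the first CpG (x axis, bases), with frontal cortex E3 and CT as filled circles joined by lines and the hippocampus libraries, both strands summed, as open triangles. The cortex lines of E3 and CT do not cross in any of the 8 runs, and the triangles of the Epor, Gm29638 (1810019N24Rik) and Calca runs are mostly in the reverse order.

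By RefSeq, 657 members (21.9%) lay in the span of a gene, of which 410 were in long noncoding RNAs, 179 in protein-coding genes and 59 in pseudogenes, so the authors' annotation and RefSeq differ there. A further 86 lay in a promoter only, and 2257 (75.2%) outside both. Members outside genes and promoters had a median distance of 16222 bases to the nearest start, and 20307 bases was the value for all hippocampus CpGs outside genes. This hippocampus set stands in for a background, because the uncalled sites of the cortex are not analysed here. It leaves out every site in a RefSeq gene or promoter, but the members set beside it below include the 657 in genes.

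Members grouped by the nearest gene start within 100 kb gave small numbers for most lists, and a near gene is a position and not a target. No member had its nearest start in the imprinted, steroid receptor, glutamate receptor, GABA or clustered protocadherin lists. By the nearest protein-coding start, chosen after the data were seen, these lists held 7, 4, 5, 0 and 0 members. The synaptic adhesion list had 11 members at 7 genes, 7 higher and 4 lower, or 0.367% of members against 0.0772% of hippocampus CpGs outside genes. Members in RefSeq genes, such as the Tenm2 site, are counted there, whereas the hippocampus CpGs hold none. The shares here and in the next paragraph thus compare unlike sets. Ptprf, a receptor phosphatase of synapse formation, had 80% and 0% in the cortex, and 40.6% of 32 reads and 0% of 22 in the hippocampus. Of the 7 members near neuropeptide and stress genes, 1 near the opioid receptor gene Oprm1 had 44.2% and 17.5% in the cortex and 31.6% of 19 reads and 4.17% of 24 in the hippocampus (Fisher's exact p = 0.033).

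Near chromatin genes there were 2 members. That near Ep300, which encodes a histone acetyltransferase, had 71.7% and 0% in the cortex, but 34.4% of 61 reads and 90% of 10 in the hippocampus (Fisher's exact p = 0.0013). The member near Adra2a, an adrenergic receptor, had 0% and 100% in the cortex, and 45% of 20 reads and 0% of 5 in the hippocampus, not called. That near the immediate early gene Fos, 1338 bases from its start, had 0% and 16.9% in the cortex. With both strands summed its hippocampus level was 0% of 11 reads in each library. Homeobox and paired-box genes had 24 members, 8 higher and 16 lower, 0.8% against 0.505% of the hippocampus CpGs, and olfactory and vomeronasal receptor genes 38, 23 higher and 15 lower, 1.27% against 2.12%. The 4 members of axon guidance genes included 2 near Unc5b, at 39.4% and 27.3% in E3 and 0% in CT of the cortex. In the hippocampus the first had 38.5% of 26 reads and 0% of 5. The second had 19.2% of 52 and 40% of 10, and neither was called.

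In the sequence around the members (150 bases on either side, 301 in all) the median was 7 CpGs and the GC content 49.8%, against 6 and 47.8% for the hippocampus CpGs outside RefSeq genes. Repeat-masked bases held 22.8% of the members and 38.4% of those CpGs. The MspI site CCGG held 18.5% and 18.7%, and the TaqαI site TCGA 7.5% and 19.5%. Masked members had a median difference of 58.3 points and the others 39.1. Windows with 11 or more CpGs had 59.5% of members lower, against 53.5% overall.

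The full estrogen response element, with both arms exact, reads the same on both strands and contains the core GGTCA. It was found in the window of 3 members (0.1%), against 0.0242% of the hippocampus CpGs. These were at position 55165353 of chromosome 1 (0% in E3 and 75.8% in CT), 53398441 of chromosome 10 (25.5% and 5.26%) and 44716919 of chromosome 16 (0% and 20.7%). In windows of 500 bases on either side it was found for 12 members at 5 places, 11 of them lower, against 0.0869% of the hippocampus CpGs. The core GGTCA on either strand was in the window of 39.6% of the members and 39.8% of the hippocampus CpGs, and a match describes letters and not binding.

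Reads from sequence that occurs at several places can be assigned to the wrong one. The 51 bases around 304 members (10.1%) occur at more than 1 place of GRCm38 after C-to-T conversion, against 22.8% of every 100th hippocampus CpG outside genes, and this held for 20.1% of the 299 members that differed by 90 points or more. Among the named same-way sites, position 119128385 of chromosome 12 and 50700451 of chromosome 4 occur at 2 places. Position 51351331 of chromosome 4 occurs at 7, and 76250454 of the X chromosome at 9. Leaving the 304 members out left 2696, with 53.1% lower and 467 called in the hippocampus, 235 the same way and 232 the opposite way.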

How the data were processed

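Genomic DNA was digested with TaqαI and MspI, bisulfite treated and sequenced. The methods name TrimGalore, Bismark with mm10 and MethylDackel. For the frontal cortex, the authors deposited the methylated fraction of each library at called sites only, with no depth. For the hippocampus, the deposited table gives the total read count and the methylated fraction per cytosine. Methylated reads were computed as fraction times count, rounded, which is inexact above 100 reads. Columns of the authors' own comparisons (p-values, adjusted p-values, differences and classes) were not used. CHG and CHH tables were not used.

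Members are rows with empty promoter, exon, intron and island columns. Cortex positions are the plus-strand cytosine, and each was looked up on that strand in the hippocampus. Every hippocampus CpG row with at least 5 reads in both libraries was tested by a 2-sided Fisher's exact test, called at p under 0.05 (unadjusted) and 10 points. Runs join members within 1000 bases. RefSeq promoters are 1000 bases either side of a start. Copies are reference places with the same 51 bases. Intervals are Wilson 95%. Hippocampus CpGs had medians of 27 (E3) and 9 (CT) reads. The Fisher step was tested on simulated data.

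Named sites are the 10 largest rises and falls (ties by the larger of the smaller hippocampus read counts, then position), up to 12 runs with most members, the 10 called the same and the 10 the opposite way with the largest smaller difference, and up to 4 per gene list. The text gives a selection of them. Sites on some chromosomes are not reported here. Members and lists were chosen with earlier results of these data known. Alternatives were read minimum, difference, adjusted p, strands, RefSeq position, run gap and window. Python 3.11.15, numpy 2.4.6, pandas 2.3.3, scipy 1.17.1, numba 0.67.0 and matplotlib 3.10.9 were used.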

Additional observations from a re-analysis of the deposited data

Results flagged for a closer look

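At 10 named members the frontal cortex and the hippocampus were called in opposite directions, which was not tested as a difference between the tissues. In the hippocampus E3 was lower than CT, and in the cortex higher, by -100 points at position 45336112 of chromosome 17, -96.2 at 9246424 of chromosome 10, -100 at 145459857 of chromosome 6 and -85.4 at 141079656 of chromosome 4, which occurs at 181 places of the reference. The same held for position 31737015 of chromosome 17 (-81.1 points), 27613387 of chromosome 2 (-80.8), 28374526 of chromosome 2 (-76.9) and 130200472 of chromosome 4 (-76.5). In the other direction, the hippocampus difference was 100 points at position 34074913 of chromosome 17 and 85.2 points at 29105157 of chromosome 11. At the last site the minus strand had 94.9% of 39 reads in E3 and 100% of 8 in CT, and summing the strands left a difference of 33.8 points.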

How the results depend on the processing

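The share of members lower in the cortex stayed between 52.3% and 53.7% under all 6 alternatives, and the share called the same way in both tissues between 49.1% and 52.0% under the 6 run for it. The number of members called in the hippocampus was 520, and it was 326 of 846 with at least 10 reads, 102 of 222 with at least 20 reads, 255 with Benjamini-Hochberg adjusted p, and 810 of 2231 with both strands summed. Fewer or more sites tested, or a stricter threshold, is what those alternatives change by construction. The share called over all hippocampus sites was not computed for them, so whether members stayed above it was not tested. Members in gene lists numbered 89 by the nearest start and 146 by the nearest protein-coding start, an alternative chosen after seeing the data, as was the recount at 1 reference place. The 10 same-way and 10 opposite-way sites kept their direction and their call with both strands summed, whereas 2 of the 10 named rises became called lower. At most of the same-way and opposite-way sites, such as 45336112 of chromosome 17, the minus strand was not measured. There the sum was the plus strand alone and could not change the call. No paired analysis was possible because there is 1 library per group, and no library could be left out. The depth of the cortex is unknown, and the CT hippocampus depth (median 10 reads at members) limits the differences that can be called.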
